A study of Mus musculus with 3 samples.

Results

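The genes described here make, load and regulate the class I antigen-presenting molecules of the mouse thymus. They were taken as a list of 10 symbols, and all 10 were found among 52636 gene identifiers. H2-K1 and H2-D1 encode the classical class I heavy chains, and H2-T23 encodes the non-classical heavy chain Qa-1. B2m encodes beta-2-microglobulin, the light chain that all of them share. Tap1 and Tap2 encode the peptide transporter of the endoplasmic reticulum, and Tapbp encodes tapasin, which holds empty class I molecules at that transporter. Cd1d1 and Cd1d2 encode lipid-presenting CD1d molecules, which pair with the same light chain. Nlrc5 encodes the transactivator of class I genes.

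RNA-seq read counts of 3 thymus libraries, called thymus 1, 2 and 3, were analysed, and no animal is named for any of them. They came from C57BL/6 mice of the genotype Cic flox/flox that had been given tamoxifen, and served as normal littermate controls for T cell lymphomas without Cic, the gene of the repressor capicua. The lymphomas are not analysed here, and neither the age of the mice nor a Cre allele is given in the sources used here. All 3 libraries carry the same floxed alleles and the same treatment, so 1 group is described and no contrast between groups exists.

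Class I molecules carry peptides from the cytosol to the cell surface, where CD8 T cells read them. Peptides cut by the proteasome are pumped by the Tap1-Tap2 transporter and fitted into the heavy chain with the help of tapasin, calreticulin and the disulphide isomerase ERp57. In the thymus, class I on epithelial cells selects CD8 thymocytes, while CD1d on double-positive thymocytes selects natural killer T cells. NLRC5 works through a promoter module shared by the classical heavy chain genes and B2m, and interferon raises the same genes.

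The libraries held 25408442 to 30414788 reads on the transcribed strand of genes. Levels are CPM, read counts scaled to library size with TMM factors, given with SDs over the 3 libraries, and 3 reads equal 0.0986 to 0.122 CPM. The RNA was that of thymus: all 9 genes of double-positive thymocytes were tested and their summed level was 13051, 12365 and 13294 CPM in thymus 1, 2 and 3, led by the recombinase gene Rag1 at 4075 ± 169 CPM, with Cd8a, a co-receptor gene, at 1829.7 ± 38.6 CPM. In whole-organ RNA, fewer cells of a type and less RNA per cell cannot be told apart. Red cell genes stood apart between libraries, with Hbb-bs, a beta globin gene, at 663, 29.7 and 146 CPM.

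Promoters of the heavy chain and light chain genes are shown because NLRC5, whose gene is among the 10, is known to act at such promoters. RefSeq promoter windows on GRCm38.p6, from 250 bases before to 50 bases after a transcript start, were at hand for 6 of the genes. There were 7 windows, since H2-K1 has a pair of RefSeq starts, and all were searched whole. Each line below is the inner part of 1 window and runs 5′ to 3′ from 180 bases before to 30 bases after the RefSeq start. Capitals mark the searched letters, on either strand and merged where matches overlap: an NF-kB-type site (GGG, any 2 bases, TT, any base, CC), AANNGAAA for the core bound by interferon regulatory factors, TGACG for a CRE core, CCAAT for the box bound by NF-Y, and TATAA for the TATA box.
H2-K1, chr17:34000304-34000513, minus strand: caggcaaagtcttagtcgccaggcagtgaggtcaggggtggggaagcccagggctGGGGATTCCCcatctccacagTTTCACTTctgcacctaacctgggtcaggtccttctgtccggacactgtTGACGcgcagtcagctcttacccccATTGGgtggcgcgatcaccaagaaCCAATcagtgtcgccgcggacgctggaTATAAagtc
H2-D1, chr17:35262914-35263123, plus strand: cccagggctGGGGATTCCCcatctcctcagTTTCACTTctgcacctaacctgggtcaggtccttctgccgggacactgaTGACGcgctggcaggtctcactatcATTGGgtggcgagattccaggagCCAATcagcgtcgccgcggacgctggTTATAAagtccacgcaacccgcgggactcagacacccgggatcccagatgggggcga
B2m, chr2:122147507-122147716, plus strand: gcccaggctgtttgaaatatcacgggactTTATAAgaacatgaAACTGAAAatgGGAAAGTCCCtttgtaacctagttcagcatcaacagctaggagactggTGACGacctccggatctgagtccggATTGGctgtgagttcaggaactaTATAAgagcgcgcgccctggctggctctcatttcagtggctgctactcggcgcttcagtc
H2-T23, chr17:36032672-36032881, minus strand: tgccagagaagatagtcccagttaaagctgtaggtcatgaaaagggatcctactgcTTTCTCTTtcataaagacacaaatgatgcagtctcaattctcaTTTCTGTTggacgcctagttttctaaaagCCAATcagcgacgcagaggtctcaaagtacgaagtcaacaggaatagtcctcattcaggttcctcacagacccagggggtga

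In H2-K1 and H2-D1 the stretch from the NF-kB-type site to the TATA box was 151 and 150 bases long, with 133 identical bases, 17 mismatches and 1 gap, which is 88.1% identity over the aligned columns. Distances between elements are counted from first base to first base. The NF-kB-type site lay 70 bases and the interferon factor core 49 bases before the CRE core in both genes. In B2m they stood in the other order, the NF-kB-type site 48 and the interferon factor core 59 bases before the CRE core. From the CRE core to the next CCAAT box, read on the minus strand, the distance was 25 bases in H2-K1, H2-D1 and B2m alike. That pair of letters at that spacing occurred in 31 of 32851 RefSeq windows, 0.0944%, a search made after the sequences were seen. Windows of H2-K1, H2-D1 and B2m, in which the spacing was first seen, are counted among the 31. H2-T23 had 2 matches to the interferon factor core and 1 CCAAT box. The H2-K1 TATA box lies at bases 22 to 26 after the RefSeq start of the printed window, and at bases 36 to 40 after the other RefSeq start of this gene.

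Over all RefSeq windows, 4.79% held the NF-kB-type letters, 23.9% the interferon factor core, 20.8% the CRE core, 37.4% the CCAAT box and 24.9% the TATA letters. Of the 6 genes with a whole window, 3 held the first, 4 the second, 4 the third, 6 the fourth and 3 the fifth. In its whole window Tap1 had 1 CRE core and 1 CCAAT box, and Tapbp had 2 CCAAT boxes. A match describes letters in a window, and binding was not measured in these thymi.

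**Figure D1:**
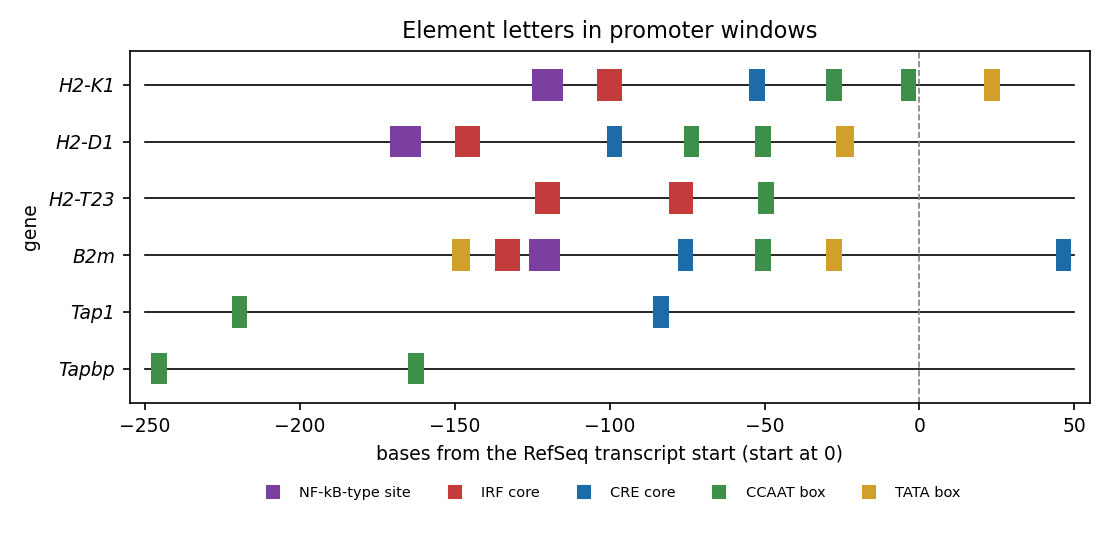
Positions of element letters in the promoter windows of 6 genes, with the distance in bases from the RefSeq transcript start on the x axis and 1 gene per row; boxes are drawn to the length of each match. H2-K1 and H2-D1 show the same order of elements. From first base to first base, the CRE core and the next CCAAT box lie 25 bases apart in H2-K1, H2-D1 and B2m.

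B2m was by far the highest of the 10 genes. It had 36965, 33779 and 27230 reads in thymus 1, 2 and 3, a level of 1215, 1152 and 1105 CPM, and a mean of 1157 ± 55.3 CPM (SD, n = 3). Genes are compared with each other per kilobase of exon, since longer transcripts gather more reads. On that scale B2m stood at 1346 ± 64.3 CPM per kilobase, rank 10 of the 16529 tested genes with an exon length. B2m (chromosome 2, 122147686 to 122153083, plus strand, GRCm38) shares 0% of its 50-base stretches with transcripts of other genes.

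The classical heavy chain genes followed. H2-K1 (chromosome 17, 33996017 to 34000347, minus strand) was at 802, 780.0 and 719.8 CPM in thymus 1, 2 and 3. H2-D1 (chromosome 17, 35262730 to 35267499, plus strand) was at 631, 615 and 578 CPM. In both genes thymus 1 was highest and thymus 3 lowest, with the highest library 1.11 times the lowest for H2-K1 and 1.09 times for H2-D1. Per kilobase H2-K1 reached 261 ± 14.5 and H2-D1 236 ± 10.5 CPM, ranks 104 and 113. H2-K1 exceeded H2-D1 within each library by a ratio of 1.12, 1.11 and 1.09.

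The ratio depends on the length used. Per kilobase of the longest coding transcript the ratio of H2-K1 to H2-D1 was 1.64 ± 0.0187. With the number of 50-base stretches found in no other gene as the length, the levels were 246 ± 13.7 CPM per kilobase for H2-K1 and 269 ± 12.0 for H2-D1, the other way round. Stretches are counted over all transcripts of a gene. H2-K1 had 3124 unshared stretches beside 2938 exon bases, and H2-D1 2260 beside 2579, so this count is not a length of unshared exon. H2-K1 shares 9.63% and H2-D1 12.8% of their stretches with other transcripts, mostly of other class I genes, and reads that map to several places were not counted.

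H2-T23 (chromosome 17, 36029773 to 36032855, minus strand) encodes Qa-1, which presents leader peptides of other class I chains to NK receptors. It was at 211, 207 and 193 CPM in thymus 1, 2 and 3, with the same order of libraries as H2-K1 and H2-D1. Its level was 70.5 ± 3.28 CPM per kilobase, and its ratio to H2-K1 within libraries was 0.270 ± 0.00249. B2m exceeded the 3 heavy chain genes together by a ratio of 2.37 ± 0.0392 per kilobase of exon, or 1.49 ± 0.0252 per kilobase of the longest coding transcript.

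Genes of peptide loading were lower. Tap2 was at 205, 223 and 210.0 CPM in thymus 1, 2 and 3, and Tap1 at 163, 166 and 156 CPM. Both were highest in thymus 2, Tap2 lowest in thymus 1 and Tap1 lowest in thymus 3. Per kilobase Tap2 stood at 56.3 ± 2.54 and Tap1 at 29.5 ± 0.979 CPM, a ratio of Tap1 to Tap2 of 0.525 ± 0.0210. With the longest coding transcript as the length the ratio was 0.886 ± 0.0355.

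Tap1 (chromosome 17, 34187553 to 34197225) and Tap2 (34203527 to 34216321) lie on the plus strand on either side of Psmb8, an immunoproteasome gene. The 5′ end of Tap1 overlaps that of Psmb9, the other immunoproteasome gene of the region, on the opposite strand by 212 exon bases. Psmb9 was at 124 ± 5.37 CPM. Only 0.701%, 0.713% and 0.596% of the stranded reads at Tap1 in thymus 1, 2 and 3 lay on the opposite strand.

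Strand mattered most for Tap2. The annotated antisense RNAs Gm15821 and Gm20496 overlap 533 and 165 of its exon bases, and had 17 to 25 and 4 to 11 reads of their own. Counted without strand, Tap2 had 65.6%, 65.1% and 66.2% of its reverse-strand reads in thymus 1, 2 and 3. Its level was then 142 ± 5.90 CPM against 213 ± 9.58 CPM on the reverse strand, and the cause was not tested.

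Tapbp (chromosome 17, 33915899 to 33929292, plus strand) was at 117, 131 and 107 CPM in thymus 1, 2 and 3, the widest relative range of the loading genes, with a highest library 1.23 times the lowest. Per kilobase it was at 32.7 ± 3.35 CPM, and its range overlapped that of Tap1. It was the only one of the 10 with more than 3% of its stranded reads on the opposite strand in every library, at 4.19%, 3.51% and 4.94% (exact 95% binomial intervals 3.57% to 4.88%, 2.96% to 4.13% and 4.16% to 5.81%). An antisense gene, Gm19412, overlaps 24.9% of the exon bases of Tapbp and had 21, 13 and 8 reads in thymus 1, 2 and 3. The opposite strand of Tapbp held 156, 140 and 137 reads, and their source was not tested. Zbtb22, on the same strand as Tapbp, overlaps 149 of its exon bases.

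The CD1d genes were far apart in level. Cd1d1 (chromosome 3, 86995834 to 86999441, minus strand) was at 67.9, 59.5 and 65.0 CPM in thymus 1, 2 and 3. Cd1d2 (chromosome 3, 86986551 to 86989780, plus strand), which the annotation lists as a polymorphic pseudogene and which is known to carry a frameshift in C57BL/6, was at 9.07, 13.5 and 9.94 CPM. Cd1d1 was lowest and Cd1d2 highest in thymus 2. Per kilobase Cd1d1 exceeded Cd1d2 by a ratio of 4.45, 2.62 and 3.89. The counting error of that ratio is 6.30%, so its spread between libraries was larger than counting alone. The genes share 489 stretches, 19.1% of those of Cd1d1 and 31.0% of those of Cd1d2, and reads that map to both were counted for neither. With unshared stretches as the length Cd1d1 was at 30.9 ± 2.05 and Cd1d2 at 9.97 ± 2.14 CPM per kilobase.

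Nlrc5 (chromosome 8, 94434356 to 94527272, plus strand) was at 103, 96.9 and 89.1 CPM in thymus 1, 2 and 3, the order of the heavy chain genes. Its transcript is long, and per kilobase it was next to last, at 11.3 ± 0.795 CPM against 7.09 ± 1.52 for Cd1d2. In the full order by level per kilobase, B2m, H2-K1, H2-D1, H2-T23, Tap2, Tapbp, Tap1, Cd1d1, Nlrc5 and Cd1d2, neighbouring genes had ranges over the 3 thymi that did not meet, except Tapbp and Tap1. With other lengths this order turned in places. Per kilobase of the longest coding transcript Tap1, at 54.7 ± 1.82 CPM, stood above Tapbp, at 40.9 ± 4.19. With unshared stretches as the length Cd1d1, at 30.9 ± 2.05 CPM per kilobase, had a higher mean than Tap1, at 29.6 ± 0.981. On the exon scale the margin between H2-K1 and H2-D1 was narrow, with 244.98 CPM per kilobase as the lowest value of H2-K1 and 244.57 as the highest of H2-D1. The median of the 10 was 44.5 ± 2.76 CPM per kilobase.

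**Figure D2:**
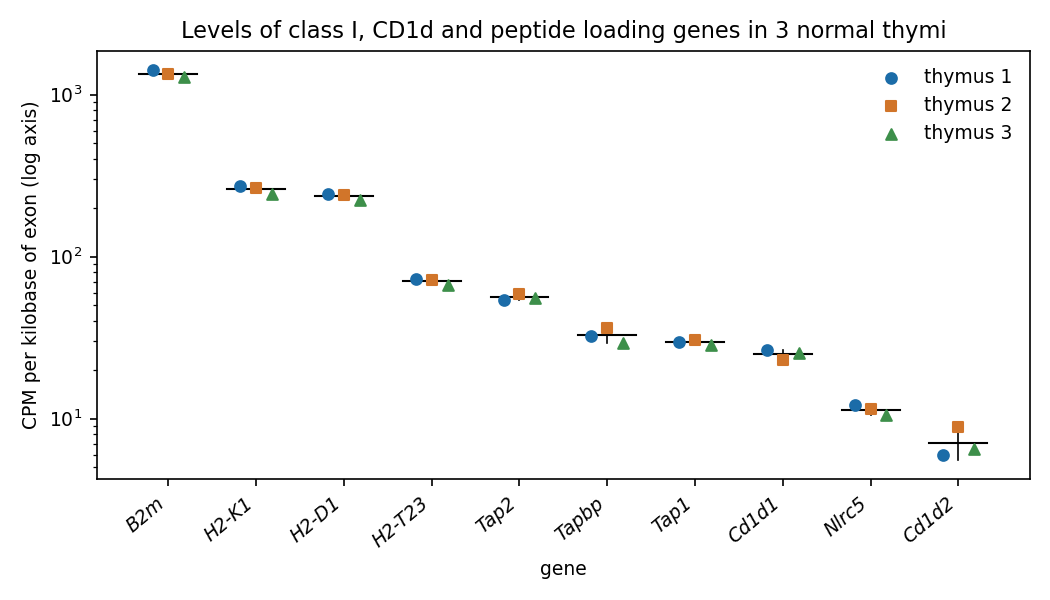
Levels of the 10 genes in CPM per kilobase of exon on a log axis, ordered by mean; points are the 3 thymi, horizontal lines the means and vertical lines 1 SD (n = 3). B2m lies at 1346 ± 64.3, above H2-K1 at 261 ± 14.5, and Cd1d2 lies lowest at 7.09 ± 1.52.

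The spread between the 3 libraries was small. All 10 genes passed the filter on low counts. Their coefficients of variation ran from 3.32% for Tap1 to 10.3% for Tapbp, apart from Cd1d2 at 21.5%, and had a median of 5.17%, beside 9.06% over all genes tested and 5.69% over the 5060 genes of at least 50 CPM. In edgeR, the quasi-likelihood test of excess spread at a given abundance called 0 of the 10 at a Benjamini-Hochberg threshold of 0.05, where it called 0.0604% of all 16548 genes tested. By the same test 0 of the 10 had an unadjusted p under 0.05, beside 731 of the 16548 genes. Negative binomial goodness of fit and DESeq2 dispersion outliers each called 0 of the 10, beside 122 and 81 of all genes tested. The lowest unadjusted p of the edgeR quasi-likelihood test among the 10 was 0.0991, for Cd1d2.

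Against counting error alone, all 10 varied further (edgeR Poisson goodness of fit, Benjamini-Hochberg threshold 0.05), where 43.4% of all genes did. Among the 5060 genes of at least 50 CPM the share was 72.9%. For B2m the coefficient of variation was 4.78% against a counting error of 0.558% (edgeR adjusted p = 6.91e-31), and for H2-K1 it was 5.56% against 0.686% (edgeR adjusted p = 7.50e-27). Tap1 was nearest to counting error, at 3.32% against 1.49% (edgeR adjusted p = 0.0236), and it was not called with DESeq2 size factors. Without thymus 2 the count was 6, with Tap1, Tap2, Cd1d1 and Cd1d2 lost. Without thymus 3 it was also 6, with H2-D1, H2-T23, Tap1 and Nlrc5 lost.

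**Figure D3:**
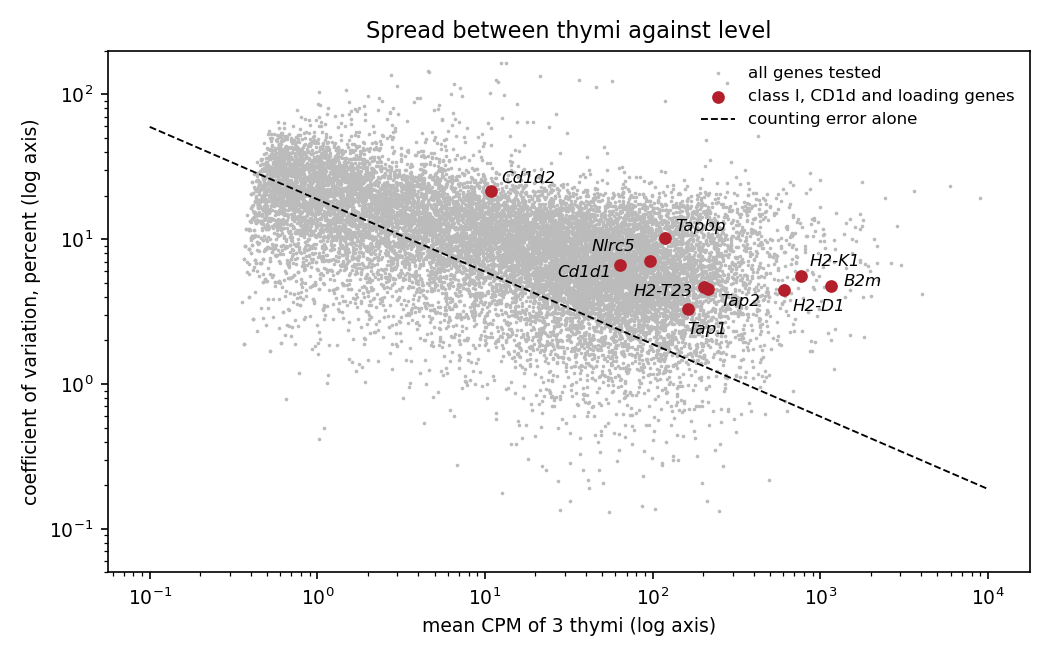
Coefficient of variation between the 3 thymi in percent against mean CPM, both on log axes, for all genes tested (grey) and the 10 genes (red); the dashed line is the counting error expected at the libraries' mean depth. All 10 genes lie above the line, from 3.32% for Tap1 to 21.5% for Cd1d2.

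H2-K1, H2-D1, H2-T23, B2m and Nlrc5 were highest in thymus 1 and lowest in thymus 3. Cd1d1 was also highest in thymus 1, and Tap1, Tap2, Tapbp and Cd1d2 were highest in thymus 2. So 6, 4 and 0 of the 10 were highest in thymus 1, 2 and 3, and 2, 1 and 7 were lowest there. Over all genes tested, 24.1%, 38.0% and 37.9% were highest and 24.3%, 36.0% and 39.7% lowest in thymus 1, 2 and 3.

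The median deviation of the 10 from their gene means was 0.05, 0.02 and −0.07 in log2 CPM in thymus 1, 2 and 3, beside medians of 0.00, 0.00 and −0.01 over all genes tested. H2-K1 deviated by 0.07, 0.03 and −0.09, and Nlrc5 by 0.09, 0.01 and −0.11. Cd1d2 had the widest deviations, at −0.23, 0.33 and −0.10.

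GC content, taken over all annotated transcripts of a gene, ranged from 41.2% for B2m to 58.4% for Tapbp. H2-K1, Tapbp, Cd1d1, Cd1d2 and Nlrc5 kept their highest library in all 5 alternatives of scaling, strand and correction. B2m was highest in thymus 2, Tap1 in thymus 1 and Tap2 in thymus 3 once a trend with GC content was removed, and H2-D1 and H2-T23 were then lowest in thymus 2. With trends in GC content and exon length both removed, Nlrc5 was lowest in thymus 2. H2-D1 and H2-T23 were highest in thymus 2 with library totals as the scale.

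**Figure D4:**
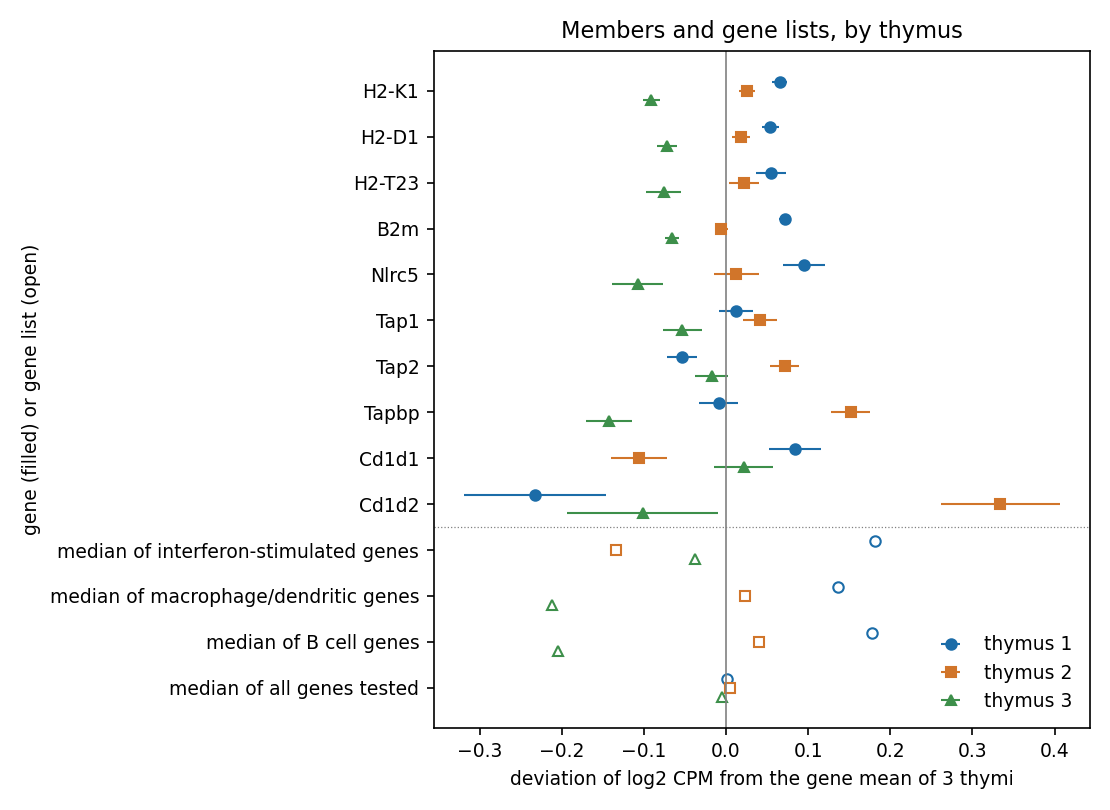
Deviation of log2 CPM from the gene mean of 3 thymi for the 10 genes (filled, with 1 standard error of counting) and medians of gene lists (open), by thymus. H2-K1, H2-D1, H2-T23, B2m and Nlrc5 lie right of 0 in thymus 1 and left of it in thymus 3, while interferon-stimulated genes have their lowest median, −0.13, in thymus 2.

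Median deviations of other gene lists were taken in the same way. Interferon-stimulated genes had median deviations of 0.18, −0.13 and −0.04 in thymus 1, 2 and 3. Of these 12 genes, 10 were highest in thymus 1, beside 24.1% of all genes tested. The lowest median of the interferon-stimulated genes was in thymus 2, and was −0.16 with the GC trend removed. In thymus 2, H2-K1, H2-D1, H2-T23, B2m and Nlrc5 deviated by 0.03, 0.02, 0.02, −0.01 and 0.01. With the GC trend removed they deviated by −0.04, −0.03, −0.04, 0.11 and −0.03. Bst2, Irf7 and Ifit1, the most abundant interferon-stimulated genes, were at 83.5 ± 7.28, 72.7 ± 12.1 and 63.0 ± 11.6 CPM. The part of interferon in the class I values was not tested.

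Marker genes of macrophages and dendritic cells, which carry abundant class I, had medians of 0.14, 0.02 and −0.21. Of those 12 genes, 10 were highest in thymus 1 and 12 lowest in thymus 3. Their summed level was 1612, 1390.3 and 1299 CPM, with Lyz2, the lysozyme gene, at 685, 514 and 469 CPM and Cst3, the cystatin C gene, at 406, 398 and 396 CPM. Ighm, an antibody chain gene at 1225, 1222 and 1197 CPM, and Cd79b led the B cell genes, which had medians of 0.18, 0.04 and −0.21, with 5 of 6 highest in thymus 1 and 6 lowest in thymus 3, and a summed level of 1319, 1308 and 1269 CPM. For both lists the shares over all genes tested were 24.1% highest in thymus 1 and 39.7% lowest in thymus 3. No defining marker of either list was at 0. The part of these cells in the order of the class I genes was not tested.

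Genes of mature single-positive thymocytes had medians of 0.02, 0.14 and −0.14 and a summed level of 709.7, 681 and 674 CPM, and those of thymic epithelium −0.03, 0.08 and −0.03 and a summed level of 2195, 2233 and 2356 CPM. Endothelial genes summed to 117, 129 and 104 CPM and mesenchymal genes to 141, 115 and 144 CPM. Neutrophil genes summed to 18.5, 14.6 and 39.5 CPM, and all 4 were highest in thymus 3, beside 37.9% of all genes tested. Of the 10 class I and loading genes 0 were highest there, or 1, Tap2, with the GC trend removed. The part of these cell types in the class I values was not tested.

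Of the other genes of the pathway, 74 in 7 lists, all were tested. The edgeR quasi-likelihood test called 0, with 4 at an unadjusted p under 0.05, beside 731 of all 16548 genes tested. DESeq2 and the negative binomial fit each called 0. Poisson goodness of fit in edgeR called 55 of the 74, beside 43.4% of all genes and 72.9% of those of at least 50 CPM. Counts beyond counting noise in the single lists below stand against the same shares. The lists were chosen with earlier results of these data known.

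Further class I and class I-like heavy chains, 16 genes, were led by H2-Q4 at 212 ± 12.0 CPM, Mr1, which presents vitamin metabolites to MAIT cells, at 191 ± 7.99, and H2-Q2 at 178 ± 13.0. Per kilobase H2-Q4 and H2-Q2 reached 81.8 ± 4.63 and 81.5 ± 5.96 CPM, above H2-T23 at 70.5 ± 3.28, and Mr1 reached 31.9 ± 1.34. H2-Q4 shares 36.4% and H2-Q2 16.1% of their stretches with other transcripts, so their levels are uncertain. Of this list 11 of 16 varied beyond counting noise. Highest in thymus 2 were 9 of the 16, beside 38.0% of all genes tested.

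The 7 assembly chaperones and trimming genes were led by Pdia3, which encodes ERp57, at 381 ± 32.9 CPM, calnexin (Canx) at 286 ± 24.8 and calreticulin (Calr) at 284 ± 18.4. Per kilobase they stood at 121 ± 10.5, 60.9 ± 5.29 and 98.6 ± 6.40 CPM, beside 56.3 ± 2.54 for Tap2 and less for Tapbp and Tap1. Pdia3 and Canx were lowest in thymus 2, where Tap1, Tap2 and Tapbp were highest. All 7 varied beyond counting noise.

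Among immunoproteasome genes, Psmb8, which lies between Tap1 and Tap2, was the steadiest named gene, at 333, 337 and 336 CPM. It was not called by Poisson goodness of fit in edgeR (adjusted p = 0.768), unlike its neighbours Tap1 and Tap2. Psmb11, the thymoproteasome subunit of cortical epithelium, was at 163 ± 10.1 CPM, and Pomp, the proteasome assembly factor, at 147 ± 20.3. Of the 7, 5 varied beyond counting noise.

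Transcription factors of class I promoters were led by Creb1 at 364 ± 49.3 CPM, the NF-Y subunit gene Nfya at 167 ± 10.6 and Nfkb1 at 141 ± 7.81. Creb1 was highest in thymus 3, at 411 CPM. Interferon receptor and signalling genes were led by Jak1 at 414 ± 14.8, the interferon gamma receptor gene Ifngr1 at 338 ± 4.96 and Jak2 at 167 ± 5.92 CPM. Of these 10 signalling genes, 6 were highest in thymus 1, beside 24.1% of all genes tested. Poisson goodness of fit called 9 of 13 and 6 of 10 genes of these lists.

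Genes of CD1d lipid loading, trafficking and natural killer T cells were led by Ctsl, Psap and Sh2d1a. Ctsl, a lysosomal protease of cortical epithelium, was at 1069.5 ± 93.1 CPM, Psap, whose saposins load lipids on CD1d, at 819 ± 86.6, and Sh2d1a, the SAP adaptor needed by natural killer T cells, at 231 ± 32.6. Psap was lowest in thymus 3, at 719 CPM, and Sh2d1a highest there, at 268 CPM. Ctsl shares 26.3% and Sh2d1a 25.6% of their stretches with other transcripts, so their levels are uncertain too. Of the 9 genes 6 varied beyond counting noise, and 11 of the 12 interferon-stimulated genes did.

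The protein-coding genes of at least 10 CPM whose deviations lay closest to the median of the 10 were Tgif1, Hivep2, Shisa2, Iars and Mpzl2, at distances of 0.00321 to 0.00473 in log2 CPM over 3 libraries. With 3 libraries such likeness is common: 649 of 9490 genes lay within 0.0521, the median distance of the 10 themselves.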

How the data were processed

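The deposited files hold raw read counts per gene, 1 library per file, for either strand, the gene's strand and the reverse strand. The submitters' processing notes name STAR 2.5.3a, DESeq2 and GRCm38, and the TruSeq Stranded mRNA kit is named per the labels' protocols. Annotation release and filters: not given in the sources used here. Counts from the reverse-strand column were used. Summary lines (unmapped, multimapping, no feature, ambiguous), 30.9% to 33.6% of reads, entered no test, and multimapping reads, 14.0% to 15.5%, were not counted, which lowers genes with close copies. GENCODE M21 gave symbols, coordinates and exon lengths for 52489 of 52636 identifiers, and RefSeq on GRCm38.p6 gave promoters.

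Tools were edgeR 4.0.16, DESeq2 1.42.0 and limma 3.58.1, run in R 4.3.3. The filter (minimum 10, total 15) left 16548 genes, and TMM factors were 1.00, 1.03 and 0.971. An intercept-only quasi-likelihood fit with a robust prior (5.24 prior degrees of freedom) set each gene's spread against the trend, one-sided, and a fit at a dispersion of 0 tested counting noise. Log2 CPM used a prior count of 2. Both tests were checked on simulated data. Lowess curves (span 0.3) removed trends with GC content and exon length. Genes named are the 10, the 3 most abundant of each pathway list, the most abundant of marker lists, and the 5 genes nearest to the members' pattern; Psmb9 and overlapping genes were added after their values were seen. The members and lists were chosen with earlier results of these data known. No animal is named for any library, so the p-values cover only the differences among these 3 libraries, which may be technical, and intervals cover counting error only, as reads carry no molecular identifiers.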

Additional observations from a re-analysis of the deposited data

How the results depend on the processing

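No paired analysis was possible because the series has 1 group. Of the 10 genes, 0 were more variable than the trend under all 10 alternatives run, with 1 at an unadjusted p under 0.05 with no filter and 1 without thymus 3. The count beyond counting noise was 9 with DESeq2 size factors and 6 to 10 with 1 library left out. Over all genes, the count above the trend was 10 in the main result, 20 with library totals, 285 with no filter, 81 by DESeq2 dispersion outliers, 122 by negative binomial goodness of fit and 23 to 137 with 1 library left out. The count beyond counting noise over all genes was 7188, and 3768 to 6579 with 1 library left out. These whole-table alternatives were chosen after seeing the data.

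The median level of the 10 was 182 CPM, 152 with the unstranded column and 179 to 185 with 1 library left out. Per kilobase it was 44.5, 35.3 with the unstranded column, 58.3 with the longest coding transcript, 52.0 with unshared 50-base stretches and 42.9 to 45.4 with 1 library left out. Of the 10 genes only Tap2 moved by more than 1 SD with the unstranded column, to 142 CPM, and the cause was not tested. With the GC trend removed, and with GC and exon length trends removed, 1 gene, Tap2, was highest in thymus 3 in place of 0. Of 30 alternative levels of single genes, 29 moved by less than 1 SD. Depth limits Cd1d2 most, with 245 to 395 reads.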
